A study of Caenorhabditis elegans with 16 samples.

Results

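The calponin-like and actin filament regulators described here are 10 of the 46904 genes in the count tables, selected by gene symbol: cpn-3, clik-1, clik-2, clik-3, unc-87, gsnl-1, cas-1, unc-60, unc-78 and tag-273. They were chosen with the response to the treatment known, since several of them were higher in the treated worms. Their values in any comparison that holds the treated worms are therefore a description, and tests are given only between control conditions. All 10 genes passed the filter on low counts and were among the 15044 genes tested. Poly(A) RNA of whole worms was sequenced in 16 libraries, with 4 libraries in each of 4 conditions and 19264325 to 32374032 counts on genes per library.

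All worms were young adults of strain PP3189, which carries the integrated transgene hhIs251. This transgene expresses the channelrhodopsin ChR2 with the changes C128S and H134R and a FLAG tag from the myo-3 promoter, with the unc-54 3′UTR and a Caenorhabditis briggsae unc-119(+) marker, so that the channel is made in body wall muscle. The strain was made by bombardment of unc-119(ed4) worms, and no strain without the transgene is compared here. The worms were grown at 18 °C from the L1 stage on food that either held all-trans retinal (ATR) at 0.1 mM or lacked it. ATR is the cofactor without which the channel does not work. The worms then received 5 s of blue light at 455 nm followed by 20 min of darkness, repeated over 8 h, or were kept in the dark. The treated worms had light and ATR, and the 3 control conditions were light without ATR, dark with ATR and dark without ATR. Worms that ruptured were removed by sedimentation before RNA isolation. The paper describes this rupture as an outcome of the treatment, so the treated libraries come from worms that stayed intact. The part of this removal in the differences between treated and control worms was not tested. The library replicates differed beyond sampling noise, with a chi-square per degree of freedom of 2.61 to 13.3 over the 24 pairs of libraries from the same condition.

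Actin filaments grow and shrink by the addition and loss of actin monomers, and in striated muscle they form the thin filaments that myosin pulls on. Calponin-related proteins bind along filaments and stabilise them. Gelsolins, ADF/cofilin, AIP1 and cyclase-associated protein cut, cap or disassemble filaments and recycle monomers, and in C. elegans muscle several of them are needed for ordered sarcomeres. In whole-worm RNA, a change in the number of cells of a type cannot be told apart from a change in RNA per cell.

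In treated worms 9 of the 10 genes were higher than in worms with light but no ATR, by 1.24 (tag-273) to 0.31 (unc-78) on the log2 scale. The exception was clik-1, at -0.05. A gene is called here when its Benjamini-Hochberg adjusted p in the edgeR quasi-likelihood test, adjusted over all 15044 genes, is under 0.05. Among all tested genes 8.39% were called higher and 7.90% lower in this comparison. The median log2 fold change was 0.52 over the 10 genes and 0.01 over all tested genes. The same 9 genes had all 4 treated libraries above all 12 control libraries, as did 7.35% of the tested genes. Since the genes were selected on this response, these shares are given as background only. Together the 10 genes took 0.243% to 0.257% of the counts in treated libraries and 0.168% to 0.185% in control libraries.

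**Figure D1:**
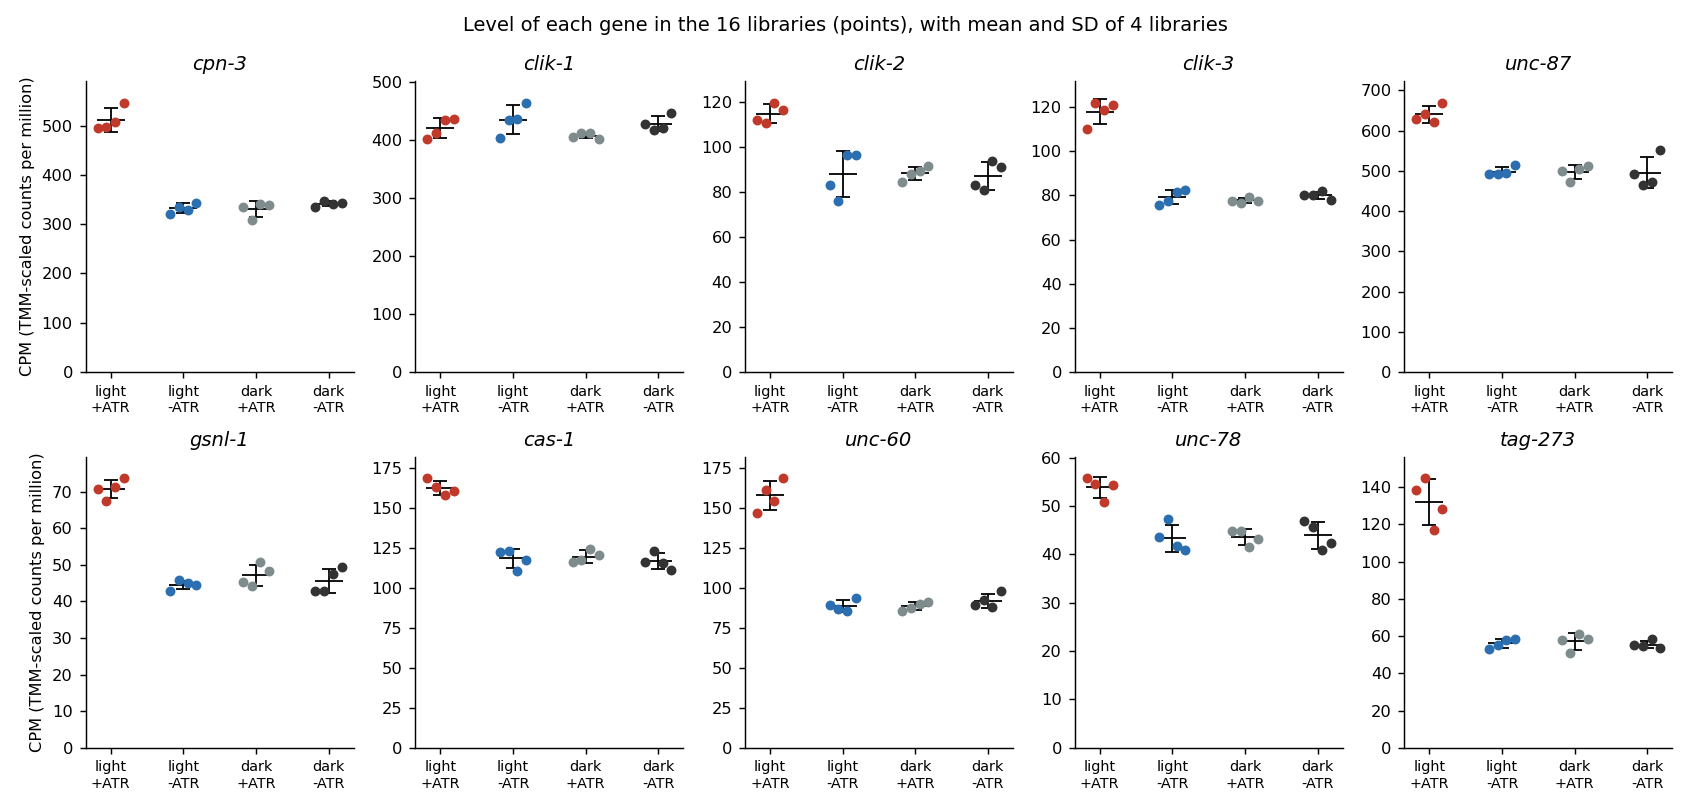
Level of each of the 10 genes in CPM (scaled by TMM; y axis, from 0) in the 4 libraries of each condition (points; x axis), with the mean and SD (bars, n = 4). For 9 genes all treated libraries lie above all 12 control libraries, while for clik-1 the treated libraries (402 to 436 CPM) lie among the controls (402 to 464 CPM).

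The calponin-like genes comprised cpn-3, clik-1, clik-2, clik-3 and unc-87. The gene cpn-3, named as a calponin, is on chromosome I (3987940 to 3988699, WBcel235, as are all positions here). Its levels, in CPM (counts scaled to a fixed library size by the TMM method), were 495, 496, 508 and 547 in the treated libraries. They were 319.8, 336, 329 and 344 with light alone, 336, 308, 341 and 339 with ATR alone, and 335, 348, 341 and 343 with neither. Every treated library was thus above every control, the lowest treated value being 1.42 times the highest control value. Its log2 fold change against light alone was 0.62 (SE 0.043).

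The gene unc-87, on chromosome I (6761221 to 6767797), encodes a protein of calponin-like repeats that binds and bundles actin filaments in muscle. In CPM it was the most abundant of the 10, with 629, 642, 622 and 669.8 in the treated libraries. The 12 control libraries ran from 465 over a median of 494 to 551, so that the groups did not overlap, although the gap was small, with the lowest treated value 1.13 times the highest control value. The log2 fold change against light alone was 0.36 (SE 0.049). The highest control library was 1 of the worms with neither light nor ATR, whose other 3 libraries had 465 to 492 CPM.

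The genes clik-2 and clik-3 are annotated by their names as calponin-like and lie on chromosomes X (7686640 to 7689219) and I (3419600 to 3424211). The levels of clik-3 were 109.95, 122, 119 and 121 CPM in treated libraries and 75.5 to 82.5 CPM (median 78.7) in controls. This gene had the tightest controls of the 10, with a highest-to-lowest ratio of 1.09 over the 12 libraries, and its log2 fold change against light alone was 0.58 (SE 0.039). The levels of clik-2 were 112, 111, 119.6 and 117 CPM in treated libraries and 75.8 to 96.5 CPM (median 88.5) in controls. Here the controls were the most scattered of the 10, with a ratio of 1.27, and the light-alone libraries spanned that whole range. The log2 fold change of clik-2 was 0.39 (SE 0.064).

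The gene clik-1 (chromosome V, 6765768 to 6768732) encodes a calponin-like protein known to act in contraction of the myoepithelial sheath around the gonad. Its levels were 402, 412, 435 and 436 CPM in treated libraries. They were 404, 435, 437 and 464 CPM with light alone, 405, 411, 412 and 402 CPM with ATR alone, and 427, 417, 421 and 447 CPM with neither. Treated and control libraries overlapped throughout, and the lowest treated value lay just below the lowest control value. The log2 fold change against light alone was -0.05 (SE 0.044, 95% interval -0.14 to 0.05), and against ATR alone it was 0.05 (95% interval -0.04 to 0.14). The difference from ATR alone was called with library totals in place of TMM scaling, at 0.13. With those totals the sign against light alone also turned, to 0.03. Against dark without ATR, its value of -0.02 turned to 0.07 with library totals and to 0.13 with ERCC counts.

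The summed level of 9 gonadal sheath and spermatheca markers was 511 to 529 CPM with light alone and 517 to 540.0 CPM in treated libraries. In this list nmy-1, a non-muscle myosin, was higher by 0.18 (SE 0.060, adjusted p = 0.047 by edgeR), the other 8 were not called, and none was at 0. The part of these cells in the level of clik-1 was not tested.

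The genes that sever or disassemble filaments were unc-60, unc-78, gsnl-1 and cas-1. The gene unc-60 (chromosome V, 1475086 to 1479576), annotated here with 1 transcript of the ADF/cofilin locus, had 147, 162, 155 and 169 CPM in treated libraries. Its levels were 89.2, 87.0, 85.6 and 93.6 CPM with light alone, 85.4, 87.8, 89.8 and 91.3 CPM with ATR alone, and 89.3, 92.3, 88.4 and 98.0 CPM with neither. The lowest treated library was 1.503 times the highest control. With a log2 fold change of 0.83 (SE 0.045) against light alone, unc-60 was second to tag-273 among the 10.

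The gene unc-78 (chromosome X, 3408674 to 3411615) encodes AIP1, which enhances the disassembly of filaments bound by ADF/cofilin. It had 55.7, 54.5, 50.7 and 54.4 CPM in treated libraries and 40.9 to 47.2 CPM (median 43.4) in controls. This was the smallest gap among the 9 genes without overlap, the lowest treated value being 1.07 times the highest control value. Its log2 fold change against light alone was 0.31 (SE 0.053).

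The gene gsnl-1 (chromosome V, 9497042 to 9499376) encodes a gelsolin-like protein, which severs and caps filaments in a calcium-dependent way. It had 70.7, 67.5, 71.2 and 73.6 CPM in treated libraries and 42.7 to 50.6 CPM (median 45.1) in controls. The groups were well apart, with a log2 fold change of 0.67 (SE 0.052) against light alone. The gene cas-1 (chromosome X, 16807455 to 16813656) encodes a cyclase-associated protein of muscle, which helps to recycle actin monomers. It had 168, 163, 158 and 160.5 CPM in treated libraries and 111 to 124 CPM (median 117) in controls. Its log2 fold change against light alone was 0.46 (SE 0.041).

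The gene tag-273 (chromosome IV, 14487087 to 14505166) had the largest difference of the 10. It was included by gene symbol and is placed in neither group above, and its relation to actin filaments was not tested. It had 139, 145, 117 and 128 CPM in treated libraries. It had 53.1, 55.0, 58.1 and 58.3 CPM with light alone, 57.8, 51.0, 61.3 and 58.4 CPM with ATR alone, and 55.3, 54.6, 58.3 and 53.6 CPM with neither. The lowest treated library was 1.91 times the highest control, and the treated libraries were also the most scattered of the 10 genes' treated groups, with a coefficient of variation of 9.29%. The log2 fold change against light alone was 1.24 (SE 0.061), a mean ratio of 2.36.

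The size of the difference was similar whichever control was used, although these comparisons share the treated libraries. The genes were chosen with their response known, so the calls below, also for the interaction, are a description. The shares of all tested genes are given as background only. Against ATR alone, 9 of the 10 genes were called higher, beside 16.2% of all tested genes, with a median of 0.52 on the log2 scale and a highest value of 1.21 for tag-273. Against dark without ATR, 9 of the 10 were called higher, beside 20.4% of all tested genes, with a median of 0.52 and a highest value of 1.25. The interaction of light and ATR is the effect of light with ATR minus the effect of light without it. It was called with a positive sign for 9 of the 10 genes, beside 2.58% of all tested genes, and ran from 0.33 (unc-78) to 1.19 (tag-273) in those 9. For clik-1 it was 0.03 (95% interval -0.10 to 0.16). With ERCC spike-in counts in place of TMM scaling the interaction was called for 5 of the 10, and clik-2, unc-87, cas-1 and unc-78 were no longer called. Leaving out replicate 4 of dark without ATR, clik-2 was also no longer called.

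**Figure D2:**
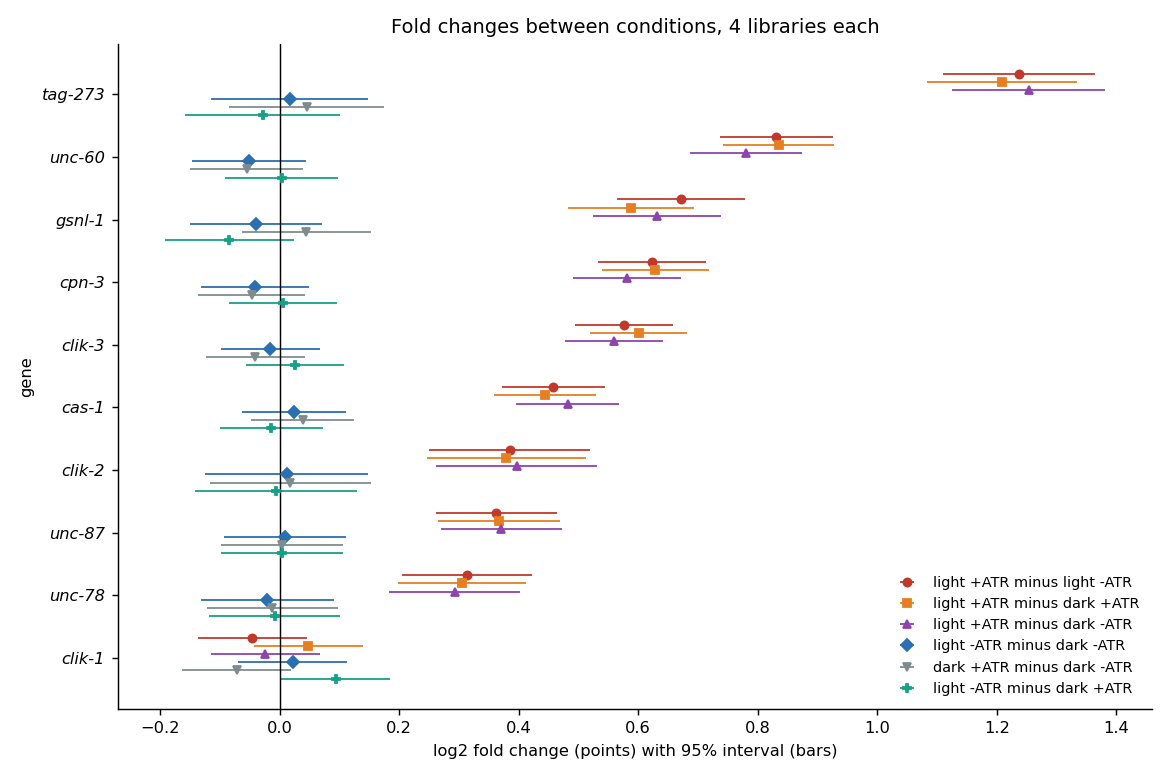
Log2 fold change (x axis; points) of each gene (y axis) in 6 comparisons between conditions, with 95% intervals (bars, n = 4 libraries per condition). The 3 comparisons with the treated worms run from 0.29 to 1.25 for 9 genes, and the 3 comparisons between controls lie between -0.08 and 0.09.

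Between the control conditions, no change of any of the 10 genes passed the adjusted threshold in 3 comparisons. The light-alone libraries were part of the comparison known when the genes were chosen. Only ATR in the dark against dark without ATR uses none of them. Light without ATR was compared with dark without ATR to ask whether light acts on worms with a channel that lacks its cofactor. The 10 log2 fold changes ran from -0.05 to 0.02, and the adjusted p given by edgeR ran from 0.70 to 0.97. At an unadjusted p under 0.05, 0 of the 10 would pass, and DESeq2 also called 0. The 95% intervals reached from -0.15 to 0.15 with TMM scaling and from -0.12 to 0.34 with ERCC counts. Among all genes tested, edgeR called 0 (0%), 2012 had an unadjusted p under 0.05, and DESeq2 called 177.

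ATR in the dark was compared with dark without ATR to ask what the cofactor does without the blue light. The paper states that room light at collection can also trigger the working channel, though with a weaker contraction. Here the 10 log2 fold changes ran from -0.07 (clik-1) to 0.05 (tag-273), with 95% intervals from -0.16 to 0.18 with TMM scaling and from -0.11 to 0.40 with ERCC counts. The edgeR adjusted p ran from 0.71 to 1.00, 0 of the 10 had an unadjusted p under 0.05, and DESeq2 called 0 of them. Among all genes tested, edgeR called 10 (0.0665%), 1179 had an unadjusted p under 0.05, and DESeq2 called 23. With ERCC scaling, the median log2 fold change over all genes tested was 0.15 for ATR in the dark and 0.11 for light without ATR, and the 10 genes moved with that median.

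Light without ATR was also compared with ATR in the dark. The 10 log2 fold changes ran from -0.08 (gsnl-1) to 0.09 (clik-1), with 95% intervals from -0.19 to 0.19 with TMM scaling and from -0.29 to 0.24 with ERCC counts. For clik-1 the interval was 0.0026 to 0.19, and its unadjusted p under 0.05 was the only one of the 10. The edgeR adjusted p ran from 0.98 to 1 over the 10 genes, and DESeq2 called 0 of them. Among all genes tested, edgeR called 8 (0.0532%), 755 had an unadjusted p under 0.05, and DESeq2 called 23.

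Levels of different genes were compared per kilobase of exon. In worms with neither light nor ATR, cpn-3 had the highest level, with 558 ± 8.69 CPM per kilobase (SD, n = 4). Then came clik-1 with 249 ± 7.56, unc-87 with 209.6 ± 16.5, unc-60 with 128 ± 6.03 and clik-3 with 89.9 ± 1.89 CPM per kilobase. Lower still were clik-2 with 46.7 ± 3.31, gsnl-1 with 28.6 ± 2.08, cas-1 with 24.6 ± 1.06, unc-78 with 21.7 ± 1.38 and tag-273 with 16.9 ± 0.61 CPM per kilobase. No neighbours in this order overlapped over the 4 libraries, and cpn-3 was 33.1 times as high as tag-273.

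In treated worms the order of these length-scaled levels differed in 2 places. The level of unc-87, at 271 ± 8.92 CPM per kilobase (SD, n = 4), lay above that of clik-1, at 245 ± 9.82. The level of tag-273, at 40.2 ± 3.74, lay between gsnl-1 at 44.4 ± 1.58 and cas-1 at 34.4 ± 0.95, and its libraries overlapped those of both. The libraries of clik-1 also overlapped those of unc-60, which had 220.4 ± 12.9 CPM per kilobase. Length scaling used the union of annotated exons, which is a single transcript for cpn-3, clik-2, gsnl-1 and unc-60 and up to 6 transcripts for tag-273.

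**Figure D3:**
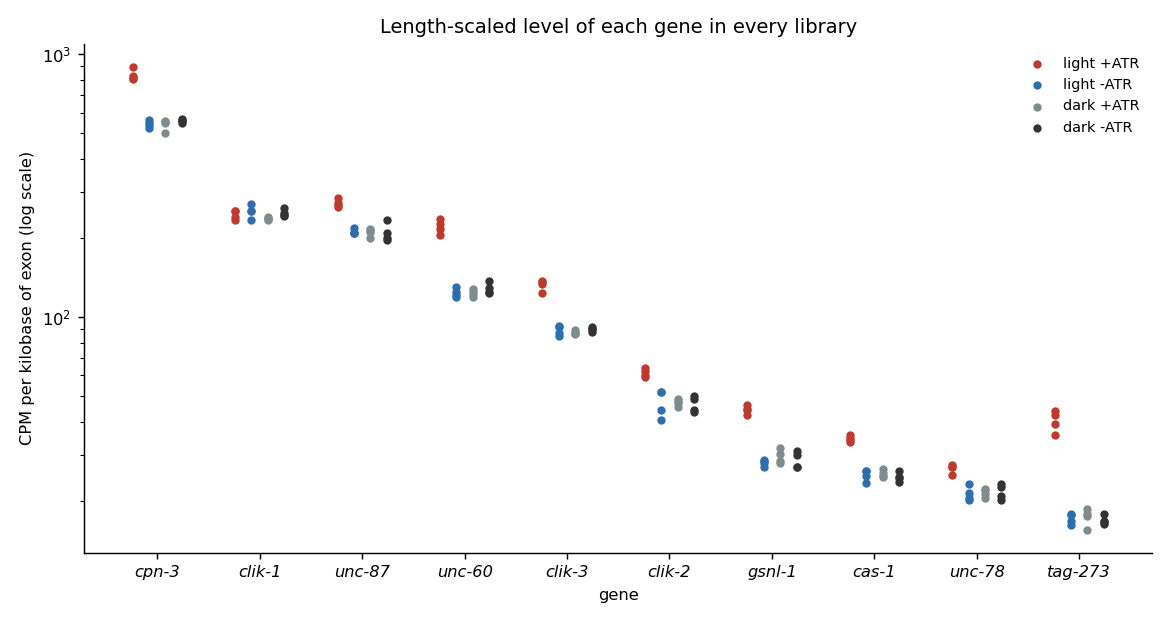
CPM per kilobase of exon (y axis, log scale) of each gene (x axis, ordered by the level in worms with neither light nor ATR) in every library (points, coloured by condition). The levels span from cpn-3 at 558 CPM per kilobase down to tag-273 at 16.9 in that condition, and in treated worms tag-273 stands at 40.2.

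The 10 genes lie on 4 chromosomes, with 3 each on I, V and X and 1 on IV. On the opposite strand, exons of T25F10.1 overlap 231 bases of clik-1, those of C53C9.6 overlap 213 bases of clik-2 and those of F08B6.1 overlap 182 bases of unc-87. The library kit keeps strand, and over all libraries these partners held 0, 0 and 4636 counts, beside 212981 for unc-87. The only exon shared on the same strand with a counted gene of comparable level was that of unc-60, whose first exon of 56 bases is also the first exon of F53E2.2 (chromosome V, 1475086 to 1476784). The other 4 exons of F53E2.2 lie between the first and second exons of unc-60, so that the pair begin at one position and end apart. The locus is known for 2 ADF/cofilin proteins made from a shared first exon, but the annotation used here gives F53E2.2 no gene name or role. F53E2.2 was singled out after its values were seen, and counts in the shared exon are split between the pair by estimation.

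F53E2.2 was the more abundant of the pair and did not move with unc-60. It had 602, 609, 672 and 592 CPM in treated libraries, 699.6, 702, 659 and 674 CPM with light alone and 659 to 716 CPM over the 12 controls. Of the treated libraries, 3 lay below all controls and 1 among them. Its log2 fold change against light alone was -0.14 (SE 0.045, adjusted p = 0.033 by edgeR), a call that was lost under 9 of 14 alternatives, among them library totals, ERCC counts and leaving out 1 of 5 libraries. Those were replicates 1 and 2 of light alone and replicates 1, 2 and 4 of the treated worms. In CPM per kilobase of exon, the level of unc-60 as a percent of that of F53E2.2 was 45.1% ± 4.24 in treated worms (SD, n = 4). It was 22.9% ± 1.13 with light alone, 22.5% ± 0.340 with ATR alone and 23.4% ± 0.853 with neither. All 4 treated libraries, at 40.5% to 50.2%, stood above the controls, at 21.8% to 24.6%.

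**Figure D4:**
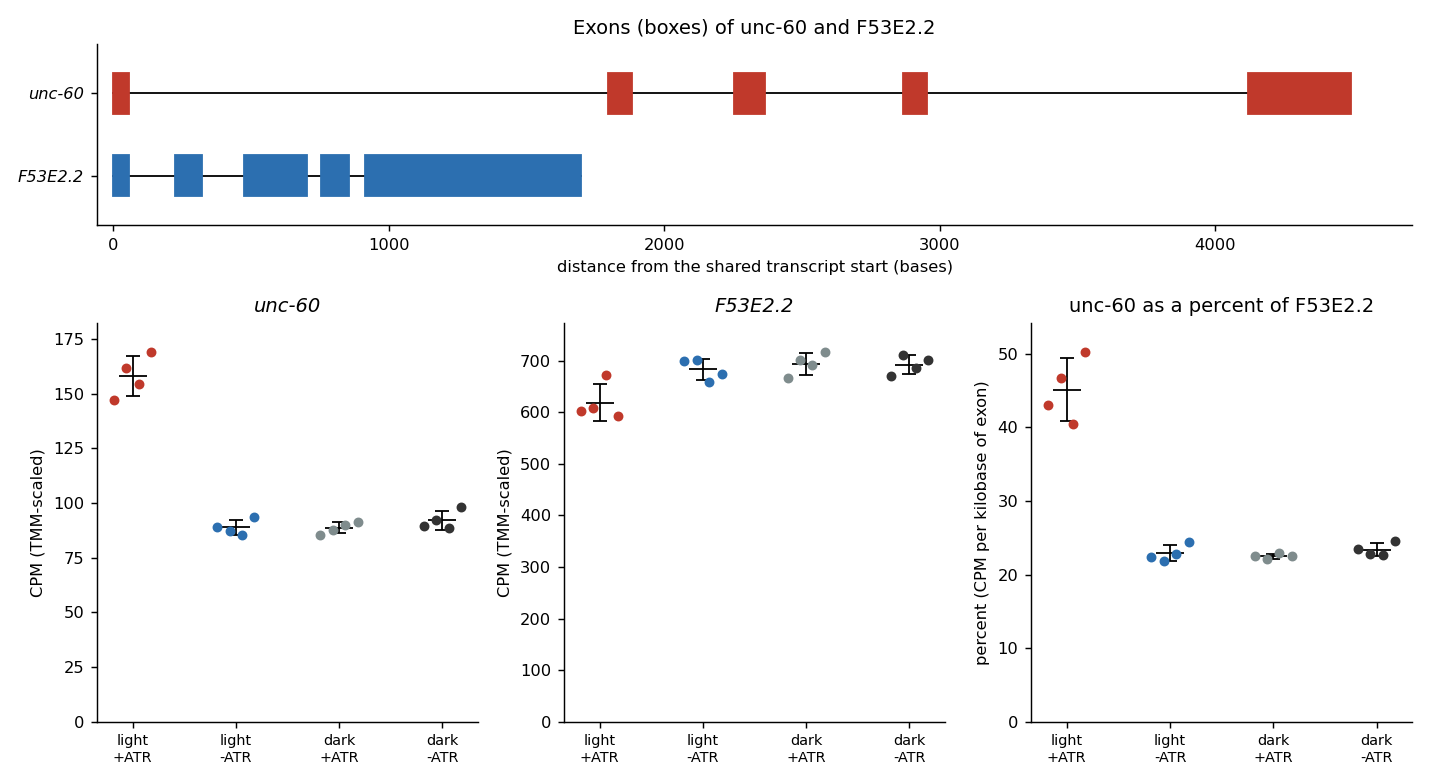
Top, exons (boxes) of unc-60 and F53E2.2 by distance in bases from their shared start. Bottom, CPM of each gene and the level of unc-60 per kilobase of exon as a percent of that of F53E2.2 in every library (points) with mean and SD (bars, n = 4), from 0; the percent is 40.5 to 50.2 in treated libraries and 21.8 to 24.6 in controls.

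Genes of body wall muscle differed in the same comparison, in which 8.39% of all tested genes were called higher and 7.90% lower. Of 10 body wall muscle markers 6 were called higher and 1 lower in treated worms against light alone, with a median log2 fold change of 0.25, and none was at 0. The markers ran from -0.28 (unc-68, called lower) to 0.62 (myo-3, whose promoter is in the transgene, called higher). Their summed level was 4276 to 4431 CPM in treated libraries, 3298 to 4076 with light alone, 3473 to 3886 with ATR alone and 3282 to 3726 with neither. The markers with the highest CPM were unc-54, the major muscle myosin heavy chain, whose 3′UTR is also in the transgene, at 0.19 (SE 0.072, not called), and unc-15, paramyosin, at 0.37 (SE 0.079, called). The part of muscle RNA in the level of the 10 genes was not tested.

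The levels were also set against the mean log2 CPM of these muscle markers. On this scale, the log2 differences from light alone were 0.99 for tag-273, 0.59 for unc-60, 0.43 for gsnl-1, 0.38 for cpn-3 and 0.34 for clik-3. Treated and control libraries overlapped for cas-1 (0.22), clik-2 (0.15), unc-87 (0.12) and unc-78 (0.08). For clik-1 the difference was -0.28. The marker mean itself was higher by 0.24 in treated worms, so a gene with unchanged CPM is lower by that amount on this scale. The share of all tested genes without overlap on this scale was not computed, so no count of genes without overlap is given. The genes were selected on their response to treatment, so these values are a description.

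Other tissues were read from marker lists as well, with the same 8.39% higher and 7.90% lower among all tested genes as background. Of 6 pharyngeal muscle markers 4 were called higher, with a summed level of 535 to 546 CPM in treated libraries and 371 to 499.9 CPM with light alone. Treated libraries lay above those with light alone for this list, and also for the body wall muscle, neuronal and full intestinal lists. Of 8 neuronal markers 3 were called higher, with 366 to 378 and 331 to 348 CPM. Of 7 intestinal markers 3 were called higher and 2 lower, with 4740 to 4941 and 3636 to 3845 CPM. The intestinal sum was carried by asp-1, an aspartic protease gene, at 3441 to 3583 and 2235 to 2395 CPM. Without asp-1 the other 6 intestinal markers summed to 1285 to 1358 CPM in treated libraries and 1382 to 1450.0 CPM with light alone. That lower sum was carried by cpr-6, a cathepsin B-like protease gene, with a log2 fold change of -0.42. It had 543 to 580 CPM in treated libraries and 727 to 749 CPM with light alone. Of the rest, ges-1 was also called lower (-0.35), while vha-6 (0.22) and pept-1 (0.25) were called higher. Of 9 germline and oocyte markers none was called, with 6199 to 6829.9 and 6775 to 7244 CPM. Of 7 hypodermal markers only col-19, a cuticle collagen, was called, and it was lower, with a summed level of 1345 to 1756 and 1635 to 1930.0 CPM. None of these markers was at 0 in all libraries, and their part in the level of the 10 genes was not tested.

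The other actin filament genes were 43 genes listed by function. Both this list and the 10 regulators were chosen with earlier results known, so their medians are not an independent contrast. In treated worms against light alone, 8 of the 43 were called higher, 4 lower and 31 not. Among all tested genes 8.39% were called higher and 7.90% lower. The median log2 fold change was 0.0044 over the list and 0.0096 over all tested genes. The largest differences were those of pfn-3, a profilin, which binds actin monomers, and cor-1, a coronin. Levels of pfn-3 were 69.0 to 77.5 CPM in treated libraries and 40.3 to 42.9 CPM with light alone, with a log2 fold change of 0.81 (SE 0.053, adjusted p = 3.44e-10 by edgeR). Levels of cor-1 were 36.6 to 39.2 and 21.7 to 25.2 CPM, with a log2 fold change of 0.67 (SE 0.059, adjusted p = 2.69e-08 by edgeR). These 2 lie within the range of the 10 regulators, while the summed level of the 5 actins was 6813 to 7328 CPM in treated libraries and 6850 to 7507 CPM with light alone.

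Of the other 10 calls in this list, the 8 with the smallest p are named. Higher in treated worms were tmd-2, a tropomodulin that caps pointed ends (0.41), fhod-1, a formin (0.36), twf-2, a twinfilin (0.29), and tth-1, a thymosin β-like monomer-binding protein (0.27). Lower were act-2, an actin (-0.24), pfn-1, a profilin (-0.22), arx-6, a subunit of the Arp2/3 complex (-0.20), and atn-1, the α-actinin that crosslinks thin filaments at the dense bodies (-0.19). The adjusted p of these 8 ran from 2.13e-05 (twf-2) to 0.021 (arx-6) by edgeR. The call of arx-6 was lost on leaving out replicate 2 of light alone, or replicate 2 or replicate 4 of the treated worms, and with library totals or ERCC counts. The profilin genes pfn-3 and pfn-1 thus moved in opposite directions, the latter not called with ERCC counts. Of the 16 nucleators and elongators 1 was called higher and 1 lower, and of the 3 other calponin genes 1 was called higher. With ERCC scaling, 6 of the 43 genes were called, and none of the 4 lower calls was kept.

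**Figure D5:**
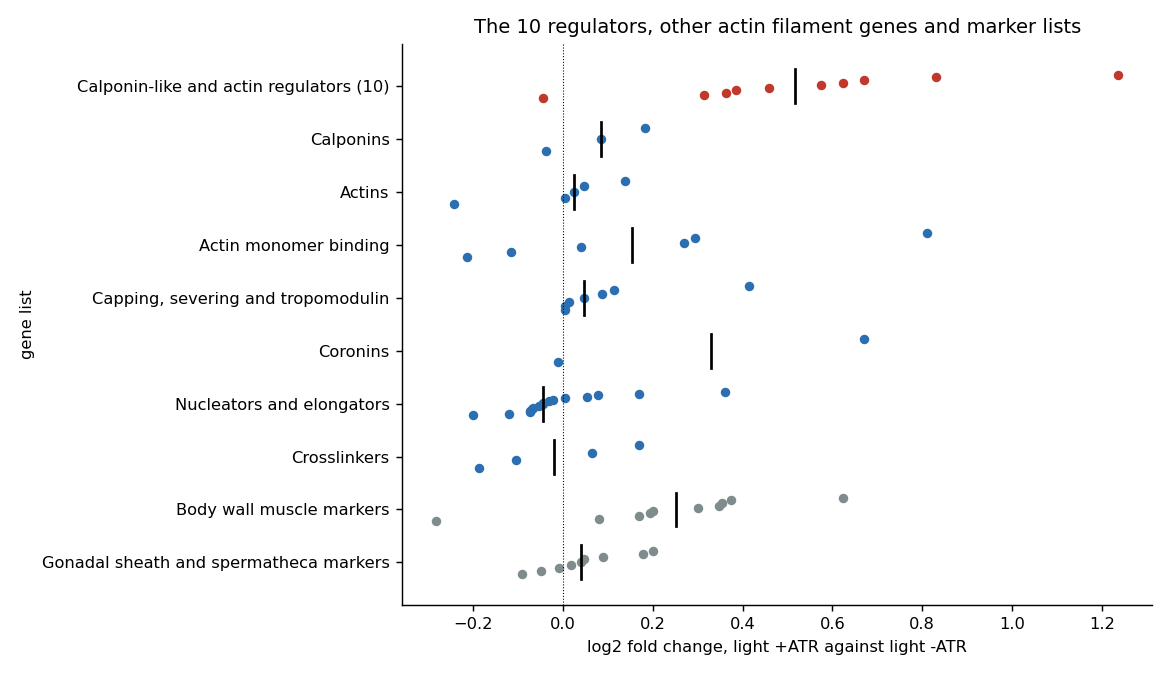
Log2 fold change (x axis) in treated worms against light alone for each gene (points) of the 10 calponin-like and actin regulators, of 7 lists of other actin filament genes and of 2 marker lists (y axis), with the median of each list (black line). The 10 genes, chosen with this response known, have a median of 0.52, the body wall muscle markers of 0.25 and the gonadal sheath and spermatheca markers of 0.04.

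The genes most like each regulator were those with the highest Pearson's r of log2 CPM over the 16 libraries, among 8078 protein-coding genes with a mean log2 CPM of at least 3. These r share the split between treated and control libraries and are a description. The gene zig-12, which encodes an immunoglobulin-domain protein, was among the 3 most similar for unc-60 (r = 0.99), cpn-3 (r = 0.99) and clik-3 (r = 0.98). The profilin gene pfn-3 was among them for cpn-3 (r = 0.99) and unc-60 (r = 0.99), and the troponin I gene tni-1 for cpn-3 (r = 0.98) and clik-3 (r = 0.98). For unc-87 the most similar was mup-2, which encodes a troponin T (r = 0.98), and for clik-2 it was faah-1 (r = 0.97), with the troponin T gene tnt-4 also near (r = 0.96). For tag-273 it was cex-1 (r = 0.99), for gsnl-1 Y45F10B.13 (r = 0.98), for cas-1 spp-18 (r = 0.98) and for unc-78 allo-1 (r = 0.94). The most similar to clik-1 was act-5, an actin of the intestine, at a lower r of 0.81.

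Among themselves, the 9 genes other than clik-1 had r from 0.60 to 0.99 over the 16 libraries (median 0.93 over 36 pairs), which again holds the treated-control split. Pairs with clik-1 had r from -0.20 to 0.13. With each condition's mean removed, the 45 pairs had r from -0.87 (clik-2 and unc-78) to 0.68 (unc-87 and unc-60), with a median of 0.18 and 29 pairs above 0. These r rest on 4 libraries per condition, the named pairs are the extremes of the 45, and no pair was tested.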

How the data were processed

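Whole worms were measured by stranded poly(A) RNA-seq with ERCC spike-ins. The authors ran nf-core RNA-seq with salmon on WBcel235 (Ensembl annotation) and deposited estimated counts per gene, not normalized, for 46904 genes and 92 ERCC sequences. A combined table named for TPM holds the same values and was treated as estimated counts. The submitters' processing notes name DESeq2 1.30.1 and R 4.0.3. The authors' own fold changes were not used.

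The counts were rounded and tested in R 4.3.3 with edgeR 4.0.16 (robust quasi-likelihood F test, TMM scaling, filterByExpr, 1 coefficient per condition over all 16 libraries). Adjustment was by Benjamini-Hochberg over 15044 genes, with a threshold of 0.05. CPM are scaled by TMM. Log2 CPM used a prior count of 2. Exon lengths and positions came from Ensembl release 115. Depth was 19264325 to 32374032 counts per library. Intervals are 95%.

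On counts simulated for treated worms against light alone over 15044 genes, 96 of 100 genes changed by 1 (log2) and 70 of 100 changed by 0.5 were called, with 5 of 14844 unchanged genes.

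Groups came from the sample labels, which describe 4 replicates per condition, and the study's methods call these independent. The 10 genes and all lists were chosen with earlier results of these data known. Named genes were all 10, at most 10 called genes of the actin list with the smallest p, at most 2 per marker list by mean CPM, and 3 most similar genes each. Genes nmy-1 and col-19, the sole called genes of their lists, and F53E2.2 were named after their values were seen. So were myo-3 and unc-68, at the ends of the body wall muscle list, and the intestinal markers ges-1, vha-6 and pept-1.

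Alternatives were DESeq2 1.42.0, library totals, ERCC counts, no filter, a replicate block, only the compared groups, and leaving out each library. Removal of the trend with exon length and the DESeq2 counts over all genes were added after the data were seen. No sequences are printed, because no sequence of these genes was at hand.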

Additional observations from a re-analysis of the deposited data

Results flagged for a closer look

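In 84 groups of 4 libraries tested (21 genes in 4 conditions), 4 had a library set apart from the others by Dixon's criterion, and chance gives about 1 in 20. Among the regulators, cpn-3 had 1 low library with ATR alone, at 307.6 CPM beside 336 to 341 CPM in the other 3, and unc-87 had 1 high library with light alone, at 514 CPM beside 491 to 495 CPM. Both values stayed below all treated libraries. Among the other actin genes, pfn-1 had 1 high library with neither light nor ATR, at 365 CPM beside 318 to 321 CPM, and arx-6 had 1 low library with ATR alone, at 63.9 CPM beside 69.2 to 70.2 CPM.

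The interaction of light and ATR was called by edgeR for 4 of the 10 named actin genes outside the regulators, beside 787 of 15044 genes in all. These genes were named for their difference between treated worms and light alone, which the interaction also contains, so the values are not independent support for that difference. The interaction was 0.92 for pfn-3 (SE 0.075, adjusted p = 4.7e-08), 0.74 for cor-1 (SE 0.083, adjusted p = 2.75e-06), 0.28 for twf-2 (SE 0.058, adjusted p = 0.0034) and -0.25 for atn-1 (SE 0.064, adjusted p = 0.020).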

How the results depend on the processing

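No log2 fold change of a called gene among the 10 reversed under any alternative in any comparison. Counts of called genes among the 10 were within 1.5 times, except that ERCC scaling gave 5 in place of 9 for the interaction. ERCC scaling also gave 6 in place of 12 for the other actin filament genes. The sources do not say that a replicate number marks a shared culture or day, and 12 of 24 same-number pairs had r above 0.1 (-0.24 to 0.48, median 0.10, against -0.03 for other numbers), so the libraries were not treated as paired. A partial sharing is hinted at by 10 of 16 libraries being closest to their own number. With a replicate block, 9 of the 10 genes were called against light alone, as without it.
The 10 genes' values against light alone moved by at least 1 SD of the replicates in 3 of 150 alternative values, and 1 changed sign (clik-1, library totals). Against ATR alone 4 of 150 moved and 0 changed sign, and against neither 15 of 150 moved and 2 changed sign, both for clik-1. For the interaction 8 of 220 moved and 2 changed sign, also for clik-1. Values near 0 between controls changed sign in 24 of 150 (light without ATR), 20 of 150 (ATR in the dark) and 30 of 150 (light alone against ATR alone) alternative values, none of them called. Removing the trend with exon length, chosen after the data were seen, gave 0.52 for clik-3 and 0.56 for cpn-3 against light alone. Library totals moved the median of all tested genes against light alone from 0.01 to 0.08. Of the named actin genes, cor-1, fhod-1, pfn-3, tmd-2, tth-1 and twf-2 were called under all 14 alternatives, while arx-6 lost its call under 5, atn-1 under 2 and act-2 and pfn-1 under 1. The least counted of the 10 was unc-78, with 18390 counts over the 16 libraries, and the coefficients of variation within conditions were 1.16% to 11.7% for the 10 genes.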
